A study of Mus musculus with 17 samples.

Results

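The genes described here encode proteins with a fibrinogen-like domain. They are Fibcd1, the gene of the protein that was given to the mice in recombinant form, and Angpt1, Angpt2, Angptl1, Angptl2, Angptl7, Fgl2, Mfap4, Tnc and Tnxb. They were taken by gene symbol from a table of 47643 genes, and all 10 were found. Of these, 9 reached 1 TPM (a share of transcripts corrected for gene length and library size) in at least 3 samples and could be tested with 13305 genes in all. Fibcd1 was too low to judge.

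The fibrinogen-like domain is a globular fold, usually at the C-terminal end of a secreted or membrane protein, that binds other proteins, sugars or acetylated compounds. Angiopoietins use it to bind the receptor Tek on endothelium, whereas tenascins and microfibril-associated proteins carry it within the extracellular matrix. Fibcd1 is a transmembrane receptor for acetylated ligands and chitin, and its ectodomain can be released from cells.

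Diaphragm muscle of 17 mice (male, strain C57BL/6J, 4 months of age) was profiled by RNA sequencing. The Control group (5 mice) carried no tumor and received a mock injection, and the Control + rFibcd1 group (5 mice) received recombinant Fibcd1. The LLC group (3 mice) bore tumors of Lewis lung carcinoma cells, a mouse lung cancer line that causes muscle wasting, and received the mock injection, and the LLC + rFibcd1 group (4 mice) bore the same tumors and received recombinant Fibcd1. The recombinant protein is a C-terminal fragment made in insect cells, so it adds no mouse mRNA to the samples. The comparisons ask how these genes differed with tumors, and how they differed with the protein in mice with and without tumors.

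The libraries held an estimated 50760000 to 54580000 reads in genes matched by symbol, recovered from the steps between low TPM values. Mitochondrially encoded genes took 45.9 to 48.4% of the TPM in Control and 41.3 to 44.3% in LLC. The tissue label matched its defining genes: the summed level of 10 myofibre markers was 47500 to 51650 TPM in Control and 41720 to 43540 TPM in LLC, with 4 of the 10 lower in LLC, beside 6.02% of all genes. Transcripts typical of liver varied between libraries, with Alb at 1934 TPM in Control + rFibcd1 replicate 2, 171 TPM in Control replicate 4 and 165.6 TPM in LLC + rFibcd1 replicate 4, against 32.01 TPM or less in the others. Ttr was at 239.2, 43.62 and 20.38 TPM in those 3 libraries and at 44.64 TPM in LLC replicate 3, where Alb was 6.81 TPM. The RNA is from whole muscle, so fewer cells of a type and less RNA per cell cannot be told apart.

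Promoters are shown for Fibcd1, which was almost unread, and for Tnc and Angptl7, the members with the largest differences. They are the RefSeq sequences on GRCm38.p6, from 250 bases before to 50 bases after the annotated start, all on the minus strand, written 5′ to 3′. Capitals mark motif matches on either strand. The TATA box was searched as TATAAA, which 13.6% of the 32851 promoters of this length hold. The GC box was searched as GGGCGG, which 35.7% hold. An AP-1 site (TGANTCA, which 7.8% hold) was also searched and had no match in these 3 sequences, and no matches overlapped. The windows are chr2:31845956-31846255 for Fibcd1, chr4:64046966-64047265 for the first of 2 Tnc starts and chr4:148500413-148500712 for Angptl7.
Fibcd1: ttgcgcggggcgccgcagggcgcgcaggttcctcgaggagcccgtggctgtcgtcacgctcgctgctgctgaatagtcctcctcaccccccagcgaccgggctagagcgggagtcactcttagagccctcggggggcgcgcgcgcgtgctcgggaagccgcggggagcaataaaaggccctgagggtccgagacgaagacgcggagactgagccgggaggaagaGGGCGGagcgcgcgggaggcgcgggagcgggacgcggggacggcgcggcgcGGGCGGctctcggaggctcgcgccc
Tnc: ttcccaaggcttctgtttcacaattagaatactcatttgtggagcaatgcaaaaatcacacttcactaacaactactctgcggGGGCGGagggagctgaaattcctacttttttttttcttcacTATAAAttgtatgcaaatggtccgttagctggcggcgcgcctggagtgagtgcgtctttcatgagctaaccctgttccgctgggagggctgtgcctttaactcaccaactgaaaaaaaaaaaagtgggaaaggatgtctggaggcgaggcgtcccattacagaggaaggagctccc
Angptl7: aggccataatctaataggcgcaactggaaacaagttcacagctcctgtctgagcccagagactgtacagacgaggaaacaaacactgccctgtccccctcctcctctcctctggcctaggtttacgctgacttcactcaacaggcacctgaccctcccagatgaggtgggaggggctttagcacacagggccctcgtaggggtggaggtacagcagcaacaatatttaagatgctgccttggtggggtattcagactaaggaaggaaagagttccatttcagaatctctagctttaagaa

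The Fibcd1 window had 46 CpG dinucleotides, against a median of 7 over all promoters, and 2 GC boxes. The Tnc window had 1 TATA box and 1 GC box, and the Angptl7 window held none of these letters. A match describes the letters only.

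Fibcd1 (chr2:31813290-31846005, minus strand, GRCm38) gave 19 reads in all 17 libraries together. In Control the reads were 0, 0, 4, 1 and 0, and in Control + rFibcd1 they were 1, 1, 0, 3 and 1. In LLC they were 4, 1 and 0, and in LLC + rFibcd1 0, 1, 0 and 2. No group stood apart, and 7 mice had a value of 0, which allows up to 0.0264 TPM (3 reads) at this depth. The mean over all mice was 0.0094 ± 0.0116 TPM (SD, n = 17), below that of every tested member.

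**Figure D1:**
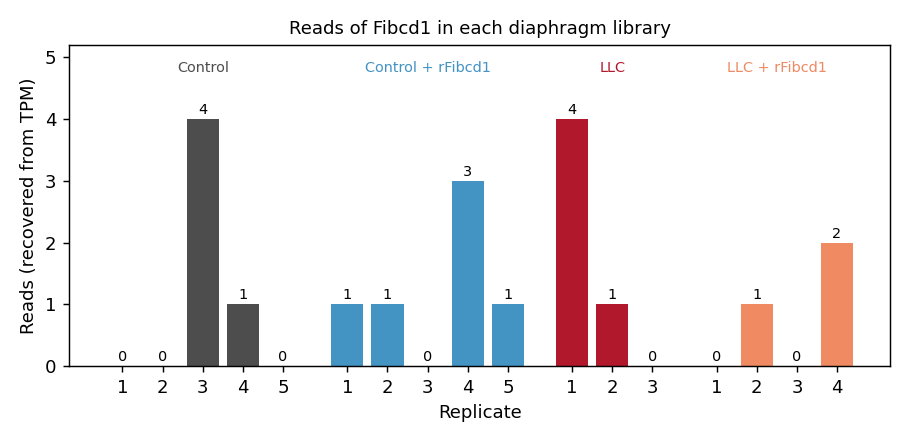
Reads of Fibcd1 in each of the 17 libraries, as bars by group and replicate; the reads were recovered from the TPM values. The highest bars reach 4 reads, in 1 Control and 1 LLC mouse, and 7 libraries have 0.

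The level was 0.00958 ± 0.0123 TPM in 7 tumor-bearing mice and 0.00927 ± 0.0117 TPM in 10 tumor-free mice (SD; two-sided exact permutation p = 0.983). It was 0.00823 TPM in 9 mice given rFibcd1 and 0.0107 TPM in 8 mock-injected mice (exact permutation p = 0.6251). No difference was detectable at this depth.

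Among the other genes, Mfap4 had the highest mean level per transcript length, 37.2 ± 7.60 TPM (SD, n = 17), followed by Tnxb at 29.5 ± 4.61 TPM and Angptl2 at 25.9 ± 4.60 TPM. Angptl7 was at 22.95 ± 12.8 TPM, Fgl2 at 19.4 ± 4.71 TPM and Angptl1 at 17.5 ± 4.32 TPM. Angpt1 was at 10.4 ± 2.50 TPM, Angpt2 at 3.48 ± 0.708 TPM and Tnc at 1.08 ± 1.22 TPM. In this order the ranges of neighbours overlapped, except between Angpt1 and Angpt2 and between Tnc and Fibcd1. Tnc and Angptl7 varied most relative to their means, with coefficients of variation of 112.9% and 55.64%, and Tnxb varied least at 15.63%.

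**Figure D2:**
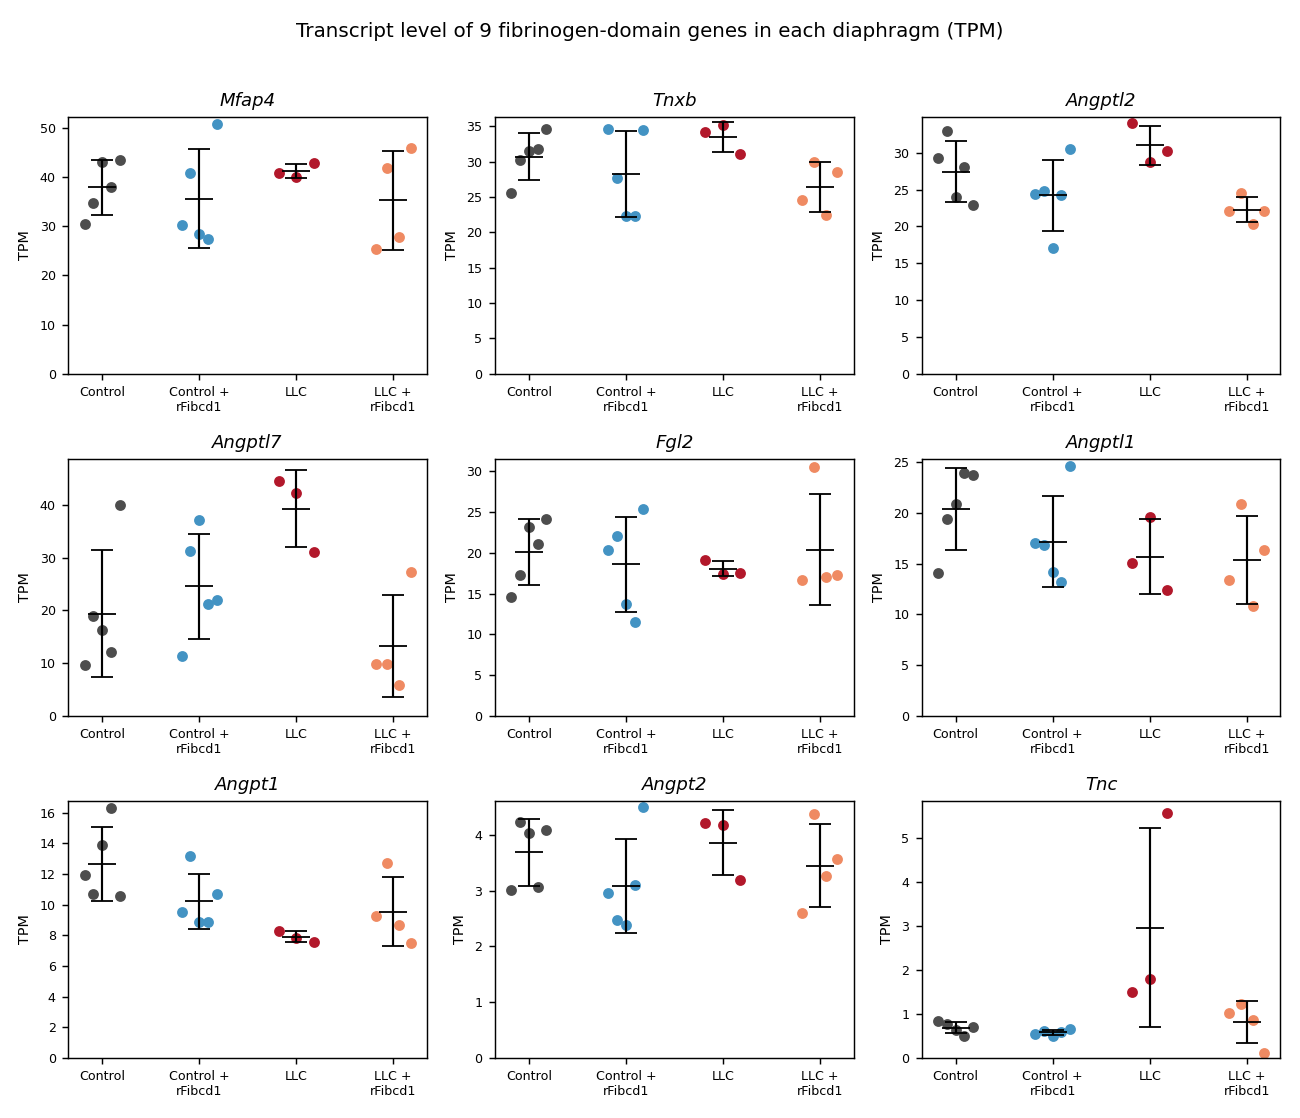
TPM of the 9 tested genes in each diaphragm; points are mice, and bars give the mean ± SD of each group. Tnc is highest in the 3 LLC mice, and Angpt1 lies between 7.58 and 8.30 TPM in LLC against 10.6 to 16.3 TPM in Control.

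With tumors alone, Tnc rose and Angpt1 fell by limma, and neither passed with the replicate number as a block. Tnc reached 1 TPM in 5 mice, all of them tumor-bearing, so the filter admitted it through the groups where it was high. This holds for every Tnc comparison below. Without the filter its adjusted p in LLC vs Control was 0.017 (limma). Of the 9 tested members, 1 was called higher and 1 lower in LLC than in Control by limma (adjusted p under 0.05), beside 35.8% of all genes tested (29.7% higher and 6.02% lower), and 3 were below an unadjusted p of 0.05, beside 48.3%. The values of 2 members did not overlap between these groups, Tnc and Angpt1, beside 40.2% of all genes. Tnc was also the 1 member whose LLC values lay outside those of all other mice, beside 6.73% of all genes. Because the filter admitted Tnc through tumor-bearing mice, its separation is not independent of the filter.

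Tnc (tenascin-C, chr4:63959785-64047015, minus strand), a matrix glycoprotein found at tendon and in injured muscle, was at 0.834, 0.765, 0.634, 0.489 and 0.703 TPM in Control. It was at 1.51, 1.80 and 5.56 TPM in LLC. All LLC mice were above all Control mice, with replicate 3 well above the other two. In that mouse the summed level of 8 mural cell markers was 521.1 TPM, against 335.9 and 358.3 TPM in the other LLC mice. Of these, Acta2 and Myh11 had the widest spread within LLC, at 117.8 ± 91.3 and 32.3 ± 25.4 TPM (SD, n = 3). Rgs5, also in that list, was lower in LLC than in Control (-0.30, adjusted p = 0.0143, limma). For 6 mesothelium markers the sum was 286.1 TPM, against 202.8 and 114.5 TPM. Krt19 had the widest spread of the 6 within LLC, at 52.8 ± 54.9 TPM (SD, n = 3). These sums need not hold for each marker, and the part of the markers in the Tnc value was not tested. Every Control mouse was below the 1 TPM of the filter, which Tnc passed through tumor-bearing mice. The log2 difference on the log2(TPM + 1) scale was 1.09 ± 0.26 (SE; limma adjusted p = 0.0118), and 1.74 with a pseudocount of 0.1 TPM. Since this scale understates changes of low genes, the mean levels are given too: 0.685 ± 0.132 TPM (SD, n = 5) and 2.96 ± 2.26 TPM (SD, n = 3).

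Angpt1 (chr15:42424723-42676977, minus strand), the ligand that activates Tek, was at 11.9, 10.7, 13.9, 16.3 and 10.6 TPM in Control and at 8.30, 7.80 and 7.58 TPM in LLC. Every LLC mouse was below every Control mouse. The log2 difference was -0.60 ± 0.16 (adjusted p = 0.0147, limma). Angpt1 shares 737 exon bases with Gm17473 on the opposite strand, which was at 0.887 TPM in Control and 0.587 TPM in LLC.

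Neither call held without LLC replicate 3. There the log2 difference was 0.66 for Tnc (adjusted p = 0.0721) and -0.58 for Angpt1 (adjusted p = 0.0762), and the number of genes called among all genes went from 4759 to 24 (2254 without LLC replicate 1). The Dunn test gave unadjusted p of 0.0262 for Tnc and 0.0048 for Angpt1. Its adjusted p was 0.118 for both, the lowest it gave for any gene in this comparison, so that it called 0 of all genes. The block gave 0.0622 for Tnc and 0.0630 for Angpt1. The median gene differed by 0.16 between LLC and Control, and the split of calls moved with the scaling, from 3958 higher and 801 lower to 1510 higher and 3175 lower after quantile normalization; in this comparison Tnc stayed higher and Angpt1 lower under each scaling.

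Angptl7 (chr4:148495183-148500460, minus strand), a secreted protein known from the cornea, was at 9.68, 18.8, 16.2, 12.2 and 39.9 TPM in Control and at 44.5, 42.3 and 31.0 TPM in LLC. The groups overlapped through Control replicate 5. The log2 difference was 1.13 ± 0.47 and did not pass the test (adjusted p = 0.0694, limma). Without that mouse it was 1.43 (adjusted p = 0.0347, limma). The difference also passed without LLC + rFibcd1 replicate 4, a mouse outside this comparison, at an unchanged 1.13 (adjusted p = 0.0417, limma). The gene lies inside Mtor, on the opposite strand and without shared exon bases; Mtor was at 11 TPM in Control and 11.7 TPM in LLC.

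The remaining 6 members did not pass. Log2 differences were 0.18 ± 0.14 for Angptl2, a secreted protein linked to inflammation, and -0.36 ± 0.23 for Angptl1, a secreted angiopoietin-like protein. They were 0.13 ± 0.21 for Mfap4, a microfibril-associated protein, and 0.12 ± 0.15 for Tnxb (tenascin-X), which binds collagen. They were -0.13 ± 0.25 for Fgl2, an immune-regulating protein of the fibrinogen family, and 0.06 ± 0.16 for Angpt2, the context-dependent counterpart of Angpt1. Leaving out 1 mouse moved Angptl2 to between 0.11 and 0.25 and Angptl1 to between -0.52 and -0.21 (the weakest without LLC replicate 1 for Angptl2 and without LLC replicate 3 for Angptl1). It moved Mfap4 to between 0.057 and 0.18 and Tnxb to between 0.062 and 0.18. Fgl2 was then between -0.23 and -0.057 and Angpt2 between 0.0014 and 0.16. Other settings gave 0.001 for Angptl2 with median-ratio scaling and -0.58 for Angptl1 with quantile normalization. The adjusted p of these 6 lay between 0.216 and 0.805 (limma).

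**Figure D3:**
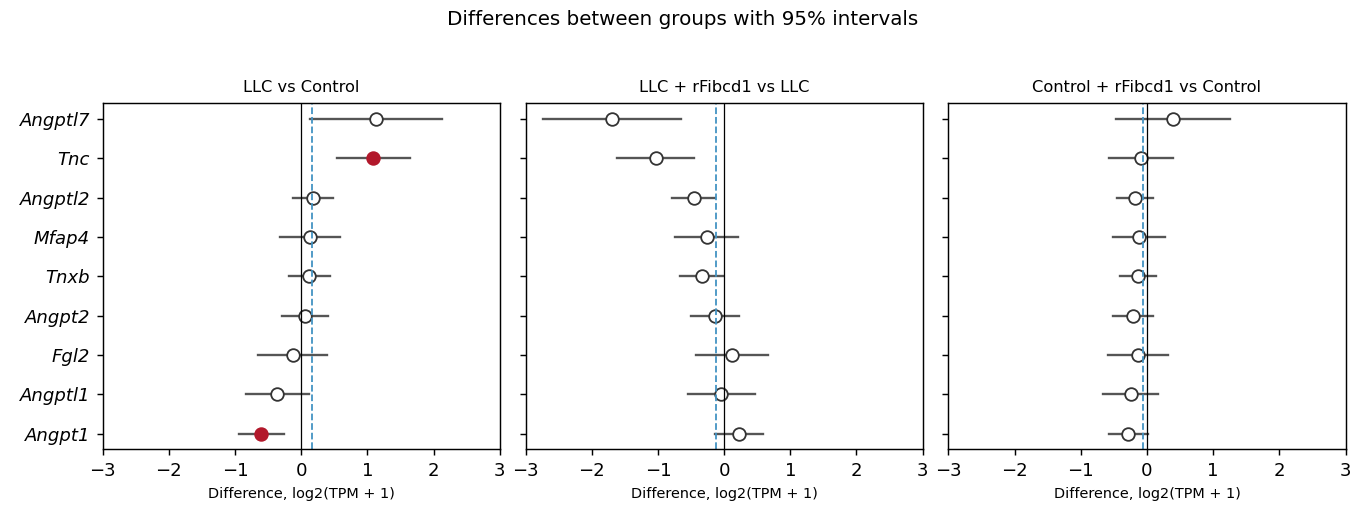
Differences on the log2(TPM + 1) scale with 95% intervals for 9 genes in 3 comparisons; filled points passed the adjusted threshold, and the dashed line is the median of all genes tested. Tnc (1.09) and Angpt1 (-0.60) are filled in LLC vs Control, and no point is filled in the other panels.

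In tumor-bearing mice, no member passed the test between LLC + rFibcd1 and LLC (limma), beside 0.113% of all genes. By limma 4 were below an unadjusted p of 0.05, beside 22.7% of all genes. After adjustment over all genes the Dunn test called 0 members and 0 of all genes. The 4 were Tnc, Angptl7, Angptl2 and Tnxb, all lower, and the same 4 did not overlap between the groups, beside 14.6% of all genes. The median of the 9 members was -0.27, beside -0.11 for all genes.

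Angptl7 was at 9.89, 9.90, 5.83 and 27.3 TPM in LLC + rFibcd1, all below the lowest LLC mouse. The log2 difference was -1.69 ± 0.49 (unadjusted p = 0.00354, adjusted p = 0.161, limma). Tnc was at 1.02, 1.21, 0.869 and 0.116 TPM in LLC + rFibcd1, with replicate 4 the lowest of all 17 mice. The difference was -1.04 ± 0.27 (adjusted p = 0.134, limma). It was -0.60 without LLC replicate 3 and -1.79 with a pseudocount of 0.1 TPM. LLC + rFibcd1 replicate 4 is also 1 of the libraries with high Alb; the part of liver transcripts in these values was not tested.

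Angptl2 was at 34.0, 28.8 and 30.3 TPM in LLC and 22.1, 24.5, 20.3 and 22.1 TPM in LLC + rFibcd1. These groups did not overlap, and the difference was -0.46 ± 0.15 (adjusted p = 0.177, limma). Tnxb was at 34.2, 35.2 and 31.1 TPM in LLC and 24.6, 30.0, 22.5 and 28.6 TPM in LLC + rFibcd1, with a difference of -0.34 ± 0.15 (adjusted p = 0.215, limma). Under the other scalings Tnxb was at -0.22 or further below 0, and its unadjusted p was then above 0.05. The values of the other members overlapped: the differences were 0.22 for Angpt1, -0.14 for Angpt2, -0.04 for Angptl1, 0.12 for Fgl2 and -0.27 for Mfap4. With 1 mouse left out, Angpt1 was at 0.09 to 0.32, Angpt2 at -0.24 to -0.04 and Mfap4 at -0.40 to -0.13.

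In mice without tumors, no member passed between Control + rFibcd1 and Control (limma), beside 0% of all genes. By limma none was below an unadjusted p of 0.05, beside 4.39% of all genes. After adjustment over all genes the Dunn test called 0 members and 0 of all genes. The differences were 0.39 for Angptl7 (0.20 without Control replicate 1 and 0.69 without Control replicate 5), -0.28 for Angpt1 and -0.24 for Angptl1, and no adjusted p was below 0.927. They were -0.21 for Angpt2, -0.18 for Angptl2, -0.14 for Fgl2, -0.13 for Tnxb, -0.12 for Mfap4 and -0.09 for Tnc.
No member's values were separate between these groups, beside 0.812% of all genes.

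The difference between the rFibcd1 contrasts with and without tumors was tested as an interaction: no member passed (limma), beside 0% of all genes, and 3 were below an unadjusted p of 0.05, beside 8.58% of all genes. These were Angptl7 (-2.09 ± 0.64, adjusted p = 0.245), Tnc (-0.94 ± 0.35, adjusted p = 0.402, and -0.51 without LLC replicate 3) and Angpt1 (0.50 ± 0.22, adjusted p = 0.521). Between LLC + rFibcd1 and Control no member passed either (limma), beside 3.08% of all genes. By limma 1 was below an unadjusted p of 0.05, beside 19.9%. After adjustment over all genes the Dunn test called 0 members and 0 of all genes in this comparison. No member's values were separate there, beside 8.88% of all genes. There the differences were -0.38 ± 0.15 for Angpt1 (adjusted p = 0.172), -0.56 for Angptl7 and 0.06 for Tnc. The Angptl7 value was -0.27 without Control replicate 5. Leaving out a mouse of LLC + rFibcd1 gave -0.28 for replicate 3 and -0.96 for replicate 4.

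Over all 7 tumor-bearing and 10 tumor-free mice, 2 members passed (limma), beside 44.8% of all genes (38.8% higher and 5.98% lower); the same 2 were below an unadjusted p of 0.05, beside 53.5%. Tnc was higher by 0.55 ± 0.18 (adjusted p = 0.0214) and Angpt1 lower, at -0.34 ± 0.11 (adjusted p = 0.0221). All 5 mice in which Tnc reached 1 TPM were tumor-bearing, so the filter admitted it through the side where it was high. The values of no member were separate between these groups, beside 2.26% of all genes. Without LLC replicate 3 neither passed, at 0.30 for Tnc (adjusted p = 0.0687) and -0.31 for Angpt1 (adjusted p = 0.0601). With the replicate number as a block neither passed, at 0.52 for Tnc (adjusted p = 0.061) and -0.36 for Angpt1 (adjusted p = 0.051, limma). Tnc also did not pass after quantile normalization (0.30, adjusted p = 0.179) or with a pseudocount of 0.1 TPM (adjusted p = 0.0624).

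The summed level of tendon and muscle-tendon junction markers was higher in each LLC mouse than in any Control mouse. The methods state that tendon was removed at dissection. For the 12 markers it was 85.8, 135, 155, 129 and 176 TPM in Control and 262, 279 and 191 TPM in LLC. It was 166, 194, 98.7 and 293 TPM in LLC + rFibcd1. No marker was at 0 in every sample, and 4 of the 9 tested were higher in LLC than in Control, beside 29.7% of all genes: Chad (1.57), Fmod (1.28), Comp (1.19) and Cilp2 (0.82). None passed between LLC + rFibcd1 and LLC (limma), with 1 below an unadjusted p of 0.05, beside 22.7% of all genes, and the sums of these groups overlapped. In LLC + rFibcd1 vs Control the median of the 9 markers was 0.41 while Angptl7 was at -0.56. Their part in the Angptl7 and Tnc values was not tested.

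**Figure D4:**
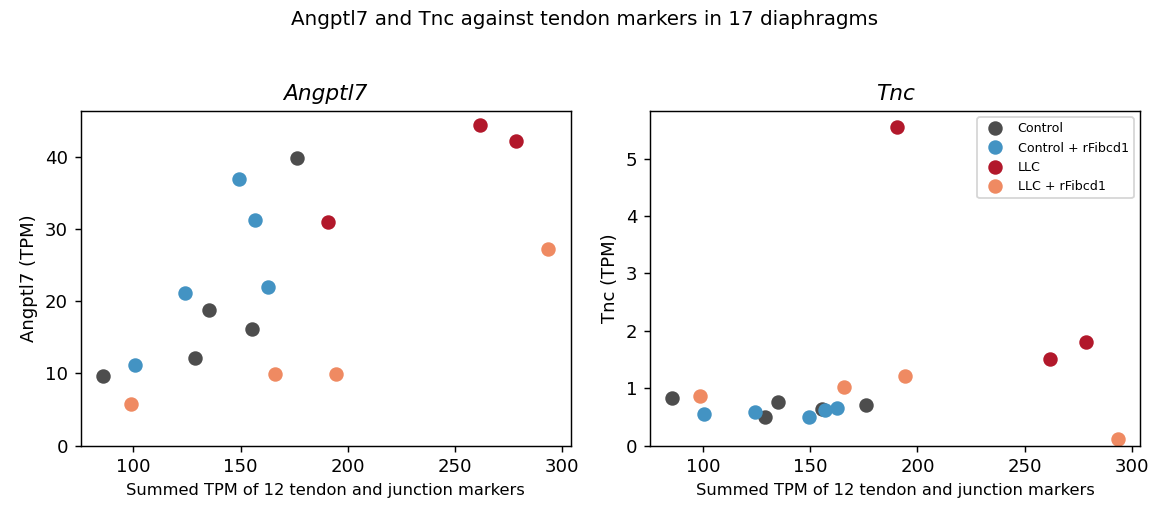
TPM of Angptl7 and Tnc in each mouse against the summed TPM of 12 tendon and junction markers, with points colored by group. The LLC + rFibcd1 mouse with the highest marker sum (293 TPM) has the highest Angptl7 of its group (27.3 TPM) and the lowest Tnc (0.116 TPM).

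The genes whose log2(TPM + 1) was most like that of each member, by Pearson r over the 17 samples, are given over all samples and then with group means removed. The points share library and group, and these values are descriptions. Angptl7 was most like Kera (0.807), Col11a2 (0.799) and Tnmd (0.759), and with group means removed most like Comp (0.928), Chad (0.913) and Fmod (0.854). Comp, Chad, Fmod and Tnmd are genes of tendon and cartilage matrix, and Kera encodes keratocan, a proteoglycan of cornea. Each of them, Kera included, is also among the tendon and muscle-tendon junction markers summed above. For Tnc the genes most alike were Anxa4 (0.920), Zfp772 (0.904) and Pde5a (0.902), and with group means removed Myl9 (0.890), Ppp3r1 (0.866) and Mapk13 (0.857). Angpt1 was most like Pkia (0.957), Lypla1 (0.905) and Cacna2d1 (0.90), and with group means removed most like Atp1b4 (0.947), Pkia (0.938) and Vma21 (0.928). For Angpt2 they were Stab1 (0.813), Eva1b (0.811) and Pear1 (0.807), and with group means removed Ppm1f (0.880), Coro2b (0.869) and Plau (0.851). Stab1 encodes a scavenger receptor of endothelium and macrophages. Angptl1 was most like Lama2 (0.955), Hmcn2 (0.902) and Col6a6 (0.883), and with group means removed most like Lama2 (0.959), Pdgfrl (0.938) and Hmcn2 (0.917). Lama2 encodes a laminin chain of the muscle basement membrane. For Angptl2 they were Itih5 (0.862), Ifit3 (0.856) and Olfml1 (0.836), and with group means removed Xpa (0.865), Abcc1 (0.862) and Rsu1 (0.849). Fgl2 was most like Pdgfra (0.895), Mmp2 (0.883) and Reln (0.874), and with group means removed most like C7 (0.944), Lbp (0.940) and Prrt4 (0.939). For Mfap4 they were Col1a2 (0.938), Ctsk (0.937) and Col6a2 (0.916), and with group means removed Col1a1 (0.956), Col1a2 (0.946) and Col6a2 (0.942). The genes beside Mfap4 include those of collagen chains. Tnxb was most like Lrrn4cl (0.918), Abca9 (0.913) and Mcpt4 (0.912), and with group means removed most like Ccbe1 (0.945), Lhfp (0.929) and Fbln2 (0.926).

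Of 12 further fibrinogen-domain genes, 6 were tested; none passed in LLC vs Control or in LLC + rFibcd1 vs LLC (limma), beside 35.8% and 0.113% of all genes, and 1 and 0 were below an unadjusted p of 0.05, beside 48.3% and 22.7%. The largest differences in LLC vs Control were 2.09 for Fcna, a ficolin (20.7 and 70.5 TPM, adjusted p = 0.0646), 1.05 for Angptl4, which inhibits lipoprotein lipase (adjusted p = 0.141), and -0.57 and -0.48 for the fibrinogen chains Fgg and Fga. Fga, Fgb and Fgg reached 79.6, 59.4 and 85.6 TPM in Control + rFibcd1 replicate 2, and 27.9, 21.0 and 26.9 TPM in LLC + rFibcd1 replicate 4. In Control replicate 4 they were at 7.30, 6.11 and 7.32 TPM. In tumor-bearing vs tumor-free mice 1 of the 6 was called higher, Angptl4 (1.07, adjusted p = 0.0297, limma), beside 38.8% of all genes, and none lower.

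Of 15 receptors and binding partners, 14 were tested, and 5 rose and 1 fell in LLC vs Control, beside 29.7% of all genes higher and 6.02% lower, with a median of 0.20 beside 0.16 for all genes. The largest differences were 1.43 for Pirb and 1.17 for Fcgr2b, receptors of immune cells, 0.80 for Itgb3 and 0.38 for Itga9, a tenascin-binding integrin subunit. Tek, the receptor of Angpt1 and Angpt2, was at 13.4 TPM in Control and 14.8 TPM in LLC and did not pass there (0.13, adjusted p = 0.127). It was at 18.4 TPM in LLC + rFibcd1 and was higher than in Control (0.42, adjusted p = 0.00333, limma), as in tumor-bearing vs tumor-free mice (0.32, adjusted p = 0.000516). In LLC + rFibcd1 vs Control, 2 of the 14 were called higher, Tek and Itga7 (0.25, adjusted p = 0.0254, limma), beside 3.08% of all genes called. There 3 were below an unadjusted p of 0.05, beside 19.9%. In tumor-bearing vs tumor-free mice 8 were called higher and 1 lower, beside 38.8% and 5.98%. The summed level of 8 endothelium markers also differed: it was 314.9 to 334.5 TPM in LLC + rFibcd1 and 247.7 to 271.6 TPM in Control, with 2 of 8 called higher, beside 3.08% of all genes called, and 7 of 8 below an unadjusted p of 0.05, beside 19.9%. Their part in the Tek value was not tested. None passed in LLC + rFibcd1 vs LLC (limma), with 2 below an unadjusted p of 0.05, beside 22.7% of all genes.

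Of 12 elastic fibre genes, the partners of Mfap4 in microfibrils, 10 were tested, and 5 rose and none fell in LLC vs Control, beside 29.7% of all genes higher, with a median of 0.54. The largest differences were 0.62 for Eln (adjusted p = 0.0539) and 0.61 for Mfap5 (adjusted p = 0.0111), then 0.57 for both Fbn1 (adjusted p = 0.0535) and Efemp2 (adjusted p = 0.0165). Of these 4, Mfap5 and Efemp2 passed there. In tumor-bearing vs tumor-free mice all 10 tested were called higher (limma), beside 38.8% of all genes, with Eln at 0.92 (adjusted p = 0.00142) and Fbn1 at 0.72 (adjusted p = 0.003). Eln also passed in LLC + rFibcd1 vs Control (1.02, adjusted p = 0.0209). None passed in LLC + rFibcd1 vs LLC (limma), with 1 below an unadjusted p of 0.05, beside 22.7% of all genes.

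Markers of other cell types are read beside the 29.7% of all genes called higher in LLC vs Control. There, 6 of 6 B cell, 6 of 6 T cell, 4 of 4 neutrophil and 5 of 8 macrophage markers tested were higher. Fibroblast markers were higher for 1 of 10, endothelium markers for 2 of 8, Schwann and perineurial markers for 2 of 6 and mural cell markers for 3 of 8, with 1 lower; the mural sum was above the Control range (341.4 to 379.2 TPM) in LLC replicate 3 alone of the LLC mice. None passed among 6 mesothelium and 6 adipocyte markers (limma), with 0 and 3 below an unadjusted p of 0.05, beside 48.3% of all genes. In LLC + rFibcd1 vs LLC none of these markers passed (limma), and 5 of 6 T cell markers were below an unadjusted p of 0.05, beside 22.7% of all genes, with a median of -1.26. The medians there were -1.79 for B cell, -1.02 for adipocyte, -0.60 for mesothelium and -0.58 for macrophage markers, beside -0.11 for all genes. They were -0.29 for fibroblast, -0.08 for Schwann and perineurial, -0.0018 for mural cell, 0.16 for endothelium and 0.29 for neutrophil markers. The endothelium sum was 264.9 to 302 TPM in LLC, below every LLC + rFibcd1 mouse. Their part in the members' values was not tested.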

How the data were processed

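The authors trimmed and filtered paired reads, aligned them to GRCm38 (mm10) and deposited gene-level TPM from the CLC Genomics Workbench, per sample and not pooled. The annotation release and strand setting are not given in the sources used here, and the labels and methods name different library kits, so reads of overlapping genes on opposite strands may not be told apart. TPM are not counts, so limma 3.58.1 (R 4.3.3) was run on log2(TPM + 1) for the 13305 genes that reached 1 TPM in 3 or more mice, in 1 model of 4 group means with an expression trend, two-sided, with Benjamini-Hochberg adjustment over all genes and a threshold of 0.05. The study's own Dunn test was an alternative because groups held 3 to 5 mice. Its calls here also used the Benjamini-Hochberg adjustment over all genes and the threshold of 0.05. The paper states p < 0.05 with a cutoff on the log2 ratio and names no such adjustment, so its gene counts are not comparable. Reads were estimated from the steps of low TPM values with GENCODE vM21 exon lengths; 92.5 to 94.4% of low values lay within 0.02 of a whole read. For the 19 Fibcd1 reads the largest distance was 0.0046.

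The members and lists were chosen with earlier results of these data known. All members were named, with the 4 genes of largest difference in LLC vs Control of each further list, the 3 genes most like a member, overlapping genes and markers. Tek and the liver genes were named after their values were seen, and the 3 promoter motifs were chosen after the data were in hand; for the TATA box the shorter letters TATAA were also tried, after the Tnc sequences were read, and were not kept. Of the members, 7 of 10 matched a RefSeq promoter. The list gene Ltbp4 was not analysed here. The labels give no batch or date. On simulated data for LLC vs Control (13305 genes, 50 per size), 12% of genes changed by 0.25, 56% by 0.5, 82% by 1 and 98% by 2 on the log2 scale were recovered. Of the unchanged genes, 7 were called. The real comparison called 4759 genes, far more than were changed in the simulation, so these shares need not hold for it.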

Additional observations from a re-analysis of the deposited data

Results flagged for a closer look

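Of 30 groups of values screened (10 genes in the groups of 4 or 5 mice), 2 held a sample far from the others, where chance gives about 1 in 20. Fgl2 was at 30.53 TPM in LLC + rFibcd1 replicate 2, with the other 3 mice of the group between 16.7 and 17.3 TPM. Fibcd1 was at 0.03516 TPM in Control replicate 3, which is 4 reads, with the other 4 mice at 0 or 1 read.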

How the results depend on the processing

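In LLC vs Control, 2 members were called; the number was 1 with a filter of 5 TPM in 3 samples, which removes Tnc, 0 with the Dunn test (adjusted p = 0.118 for both, and no gene called of all tested) and 0 to 3 with 1 mouse left out (0 without LLC replicate 3). In tumor-bearing vs tumor-free mice, 2 were called, with 1 at a pseudocount of 0.1 TPM (Tnc adjusted p = 0.0624), 1 with the 5 TPM filter and 0 to 2 with 1 mouse left out (0 without LLC replicate 3); with quantile normalization the 2 were Angpt1 and Angptl1, and Tnc was at 0.30 (adjusted p = 0.179). Leaving out 1 mouse gave 0 to 0 members called in the other comparisons. The Fibcd1 mean was 0.0176 TPM when rescaled without mitochondrially encoded genes and 0.00779 to 0.00998 TPM with 1 mouse left out.

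With the replicate number as a block, 0 members were called in both comparisons: Tnc was 1.02 (adjusted p = 0.0622) and Angpt1 -0.64 (adjusted p = 0.0630) in LLC vs Control, where 5 genes were called in all, against 4759 without the block. The numbers did not pair the samples: deviations of 22 same-numbered pairs correlated at -0.459 to 0.485, and 4 were over 0.1.

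Differences near 0 changed sign, none of them called in either setting. In LLC vs Control these were Angpt2 (-0.088), Mfap4 (-0.0505) and Tnxb (-0.0546) with median-ratio scaling, the same genes with quantile normalization (-0.2652, -0.0434 and -0.039) and Angpt2 without mitochondrial genes (-0.0335). In LLC + rFibcd1 vs LLC, Angptl1 was 0.0749, 0.1145 and 0.0132 in these 3 settings and -0.1933 to 0.1236 with 1 mouse left out, Angpt2 was 0.0974 with quantile normalization, and Fgl2 was -0.0793 to 0.1987 with 1 mouse left out. In Control + rFibcd1 vs Control, Tnc was 9e-04 with quantile normalization and Fgl2 -0.2586 to 0.0101 with 1 mouse left out. In LLC + rFibcd1 vs Control, Tnc was -0.0578 at a pseudocount of 0.1 TPM, -0.0668 with quantile normalization and -0.0569 to 0.2721 with 1 mouse left out. The causes were not tested. The LLC group of 3 mice limits the precision, and intervals for low reads cover counting error only.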
